A study of Homo sapiens with 35 samples.

Results

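The low-CDH1 libraries are 3 of the 35 RNA-seq libraries of a time course in H9 cells, an established human embryonic stem cell line. They were chosen by the measured level of CDH1, which encodes the adhesion molecule E-cadherin: it was under 30 CPM in them and in no other library. CPM is a gene's read count relative to the scaled total of its library. They are E8 at 18 h (18.2 CPM), E8 at 36 h (24.2 CPM) and BA at 42 h (22.1 CPM). The next library above the threshold was BA at 48 h, replicate 1, at 41.3 CPM, followed by t0 replicate 1 at 82.6 CPM. Each low library was compared with its neighbours, the libraries of the same medium 6 h earlier and 6 h later: E8 at 12 and 24 h, E8 at 30 and 42 h, and BA at 36 h with BA at 48 h, replicate 1.

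Stock H9 cells grew on Matrigel in E8, a pluripotency medium, were split with EDTA, and went into each medium as single cells. E8 libraries stayed in E8, and BA libraries were in E6 medium to which BMP4 and Activin A were added, 40 ng/mL being the dose stated, to give mesendoderm. E6 alone was the control for spontaneous differentiation. Samples were taken at t0 and every 6 h up to 48 h, and all cells came from 1 line. None of the 3 low libraries has a replicate of its own. The choice rests on CDH1 in these same libraries, so their values are given as a description and no test was made.

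E-cadherin joins epithelial cells at adherens junctions, and claudins seal the tight junctions above them. Primed human pluripotent stem cells grow as an epithelial sheet and express both. GRHL2 and OVOL2 are transcription factors that keep epithelial genes on, and ESRP1 and ESRP2 direct the epithelial pattern of alternative splicing. ZEB1, ZEB2 and SNAI1 repress CDH1 and other epithelial genes through E-box sequences, and such repression is known for its part in the epithelial-to-mesenchymal transition that accompanies mesoderm formation. LINC00458 is a long noncoding RNA known from undifferentiated pluripotent cells.

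The depth of the low libraries was close to that of their neighbours, with 14987586 to 16471565 counts against 13947752 to 20094992 (11793453 to 37191969 over all 35). Genes with at least 1 count numbered 26579 to 26629 in the low libraries and 25720 to 26918 in the neighbours. The share of counts in mitochondrial genes was 1.35 to 2.08% against 1.61 to 2.28%, and the 10 most abundant genes took 2.97 to 3.14% against 3.33 to 3.56%. Ribosomal protein genes took 1.31 to 1.54% of counts in the low libraries and 1.27 to 1.43% in 5 of the neighbours, but 2.45% in E8 at 24 h. Among genes sorted by length into 4 equal bins, the median difference of E8 at 18 h from its neighbours ran from -0.13 in the shortest to 0.08 in the longest on the log2 scale. The part of length and of the ribosomal share in the results was not tested, and without E8 at 24 h the counts given next were 60 and 31 genes in place of 58 and 27. Replicates 2 and 3 stood apart from replicate 1 in many genes, and it is not stated if replicates came from separate cultures. Nor is it stated if the low libraries came from the same culture or run as their neighbours, so such a difference and the differences reported cannot be told apart.

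Of the 58581 genes in the count table, 15288 had a mean of at least 1 CPM over the 9 libraries compared. All differences are on log2(CPM + 1), the low library minus the mean of its neighbours, which understates the change of low genes. In all 3 low libraries 58 genes were at least 2-fold lower (0.379% of the genes) and 27 were at least 2-fold higher (0.177%). At least 4-fold lower were 7 genes (0.0458%), and 1 was at least 4-fold higher (0.00654%). Of the 58 lower genes, 48 were below all 6 neighbours in all 3 low libraries, which held for 2.65% of all genes. Of the 27 higher genes, 13 were above all 6 neighbours, which held for 2.41% of all genes. Against its own neighbours only, each low library was below both in 57 of the 58 genes (11.6% of all genes) and above both in all 27 (10.6%). The genes were selected by their fold from these same neighbours. The counts of genes beyond their neighbours thus follow largely from that selection and are no support for it. The smallest of the 3 differences exceeded 2 pooled replicate SDs in 25 of the 58 genes and 10 of the 27. That SD pools 5 groups of 3 replicates. With the SD of replicates 2 and 3 alone, all 58 and all 27 exceeded 2 SDs. The median of that SD was 0.10, and the genes were selected for differences of at least 1, so this was all but fixed in advance. Lower genes annotated by symbol were mostly protein-coding, 49 of 58, with 3 long intergenic noncoding RNAs among the rest.

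Single libraries seldom differed this much from their neighbours. E8 at 18 h had 199 genes at least 2-fold lower (1.3%) and 96 higher (0.628%), E8 at 36 h had 187 (1.22%) and 130 (0.85%), and BA at 42 h had 339 (2.22%) and 237 (1.55%). Of 10 libraries whose own neighbours hold no low-CDH1 library, 9 had 0 to 33 genes lower and 0 to 100 higher. The exception was E6 at 18 h, with 1154 genes lower (7.55%) and 797 higher (5.21%), where CDH1 differed by only -0.16. The 2 E8 libraries shared 134 of their lower genes, 67.34% of those of E8 at 18 h and 71.66% of those of E8 at 36 h, and these comparisons have no library in common. With E8 at 18 h, BA at 42 h shared 70 lower genes, 35.18% of the E8 genes and 20.65% of its own. Across the 15288 genes, which are not independent, Pearson's r of the differences was 0.75 between the E8 libraries, 0.38 between E8 at 18 h and BA at 42 h and 0.46 between E8 at 36 h and BA at 42 h.

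**Figure D1:**
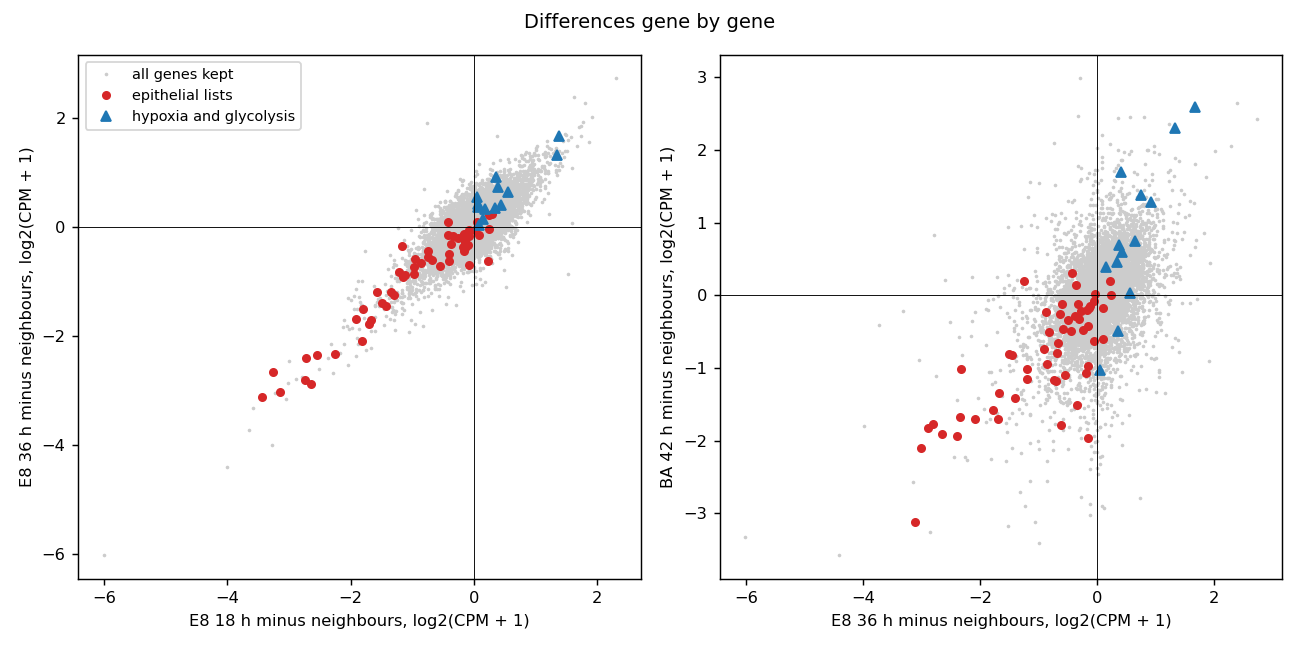
Differences from the neighbours on log2(CPM + 1), 1 point per gene for the 15288 genes, with E8 at 18 and 36 h in the left panel and E8 at 36 h with BA at 42 h in the right panel. Red circles are the 55 epithelial genes kept and blue triangles the 13 hypoxia and glycolysis genes kept. Epithelial genes stretch into the lower left in both panels, and the cloud is narrower on the left (r = 0.75) than on the right (r = 0.46).

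Promoter letters are shown for the 3 lower genes that hold the E-box CACCTG, or CAGGTG when read on the other strand, at least 3 times in the 250 bases before their first listed RefSeq start. AP1M2, RAB17 and TMEM30B encode proteins of membrane traffic and polarity in epithelial cells. The windows are chr19:10587313-10587562, chr2:237590735-237590984 and chr14:61281339-61281588 in GRCh38.p14, all on the minus strand. Those of RAB17 and TMEM30B lie inside the genes as GENCODE 29 draws them, since RefSeq places the start further in. Capitals mark the E-boxes, and each line ends at the base before the start.
AP1M2: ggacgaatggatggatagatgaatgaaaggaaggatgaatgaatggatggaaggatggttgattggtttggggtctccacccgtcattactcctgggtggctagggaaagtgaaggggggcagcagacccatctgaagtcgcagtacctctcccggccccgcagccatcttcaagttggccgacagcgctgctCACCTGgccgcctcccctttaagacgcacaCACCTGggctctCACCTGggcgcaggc
RAB17: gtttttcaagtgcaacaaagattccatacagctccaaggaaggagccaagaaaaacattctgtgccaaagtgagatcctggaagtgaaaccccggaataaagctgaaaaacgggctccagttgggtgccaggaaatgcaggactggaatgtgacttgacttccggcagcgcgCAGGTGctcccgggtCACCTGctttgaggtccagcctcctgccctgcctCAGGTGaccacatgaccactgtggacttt
TMEM30B: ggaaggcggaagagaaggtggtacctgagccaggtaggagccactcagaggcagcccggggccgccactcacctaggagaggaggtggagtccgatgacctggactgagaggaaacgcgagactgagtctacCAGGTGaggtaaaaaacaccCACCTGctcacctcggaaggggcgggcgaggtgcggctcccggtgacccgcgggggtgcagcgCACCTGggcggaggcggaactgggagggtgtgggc
The E-boxes begin 57, 27 and 15 bases before the start of AP1M2, 78, 63 and 29 before that of RAB17 and 118, 98 and 35 before that of TMEM30B. RefSeq promoters were found for 31 of the 58 lower genes. CDH1 was not among these 31, so its promoter was not searched. Of the 31, 12 (38.7%) held at least 1 E-box, against 17.5% of all 27305 promoters and 15.7% of those of the genes kept. The 21 higher genes with a promoter included 4 (19%) with an E-box. At least 3 E-boxes were found in 3 of the 31 (9.68%) and in 0.472% of all promoters. These counts describe letters in a window and say nothing of binding.

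CDH1 lies on chr16:68737225-68835548 (hg38, GENCODE 29). Its level was 120 and 101 CPM in E8 at 12 and 24 h and 18.2 CPM (298 counts; Poisson interval 16.2 to 20.4) between them. Around 36 h in E8 it was 121 and 134 CPM at 30 and 42 h and 24.2 CPM (21.8 to 26.8) between them. In BA it was 127 CPM at 36 h, 22.1 CPM (19.9 to 24.5) at 42 h and 41.3 CPM at 48 h in replicate 1. The low libraries lay below all 6 neighbours, 5.81-, 5.10- and 3.18-fold lower on this scale, with differences of -2.54, -2.35 and -1.67. The pooled replicate SD of CDH1 was 1.02, and 0.07 within replicates 2 and 3 alone. The Poisson intervals cover counting error at 95% only. BA at 48 h, replicate 1, was itself far below replicates 2 and 3 of that group at 453 and 464 CPM. With the mean of the 3 replicates as the 48 h neighbour the BA difference was -2.82.

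ESRP1, which encodes an epithelial splicing regulator, was at 12.0, 21.2 and 19.1 CPM in E8 at 18 h, E8 at 36 h and BA at 42 h. Its neighbours were at 135 and 112 CPM, 140 and 137 CPM, and 82.7 and 67.3 CPM in the same order. No neighbour came within 3-fold of a low library, and the pooled replicate SD of this gene was 0.29 on the log2 scale against differences of -3.25, -2.65 and -1.91. GRHL2, an epithelial transcription factor, was at 3.05, 2.92 and 4.80 CPM in the low libraries. Its neighbours were at 26.8 and 22.3 CPM, 27.9 and 27.9 CPM, and 27.4 and 13.8 CPM. Low libraries and neighbours did not overlap, with differences of -2.65, -2.88 and -1.82 and a pooled replicate SD of 0.70.

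LINC00458, on chr13:54115783-54132866, was at 1.04, 1.21 and 4.67 CPM in the low libraries (17, 19 and 77 counts). The E8 neighbours were at 99.1 and 170 CPM and at 123 and 163 CPM, and the BA neighbours at 64.2 and 48.4 CPM. Its differences of -6.01, -6.01 and -3.32 were the largest of any of the 58 genes in both E8 libraries. Unlike the other markers, it was also low in replicates 2 and 3 of t0, BA, E6 and E8, at 0.178 to 19.9 CPM, where CDH1 was at 152 to 464 CPM. Its pooled replicate SD of 2.68 reflects that gap, and within replicates 2 and 3 alone the SD was 0.50.

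**Figure D2:**
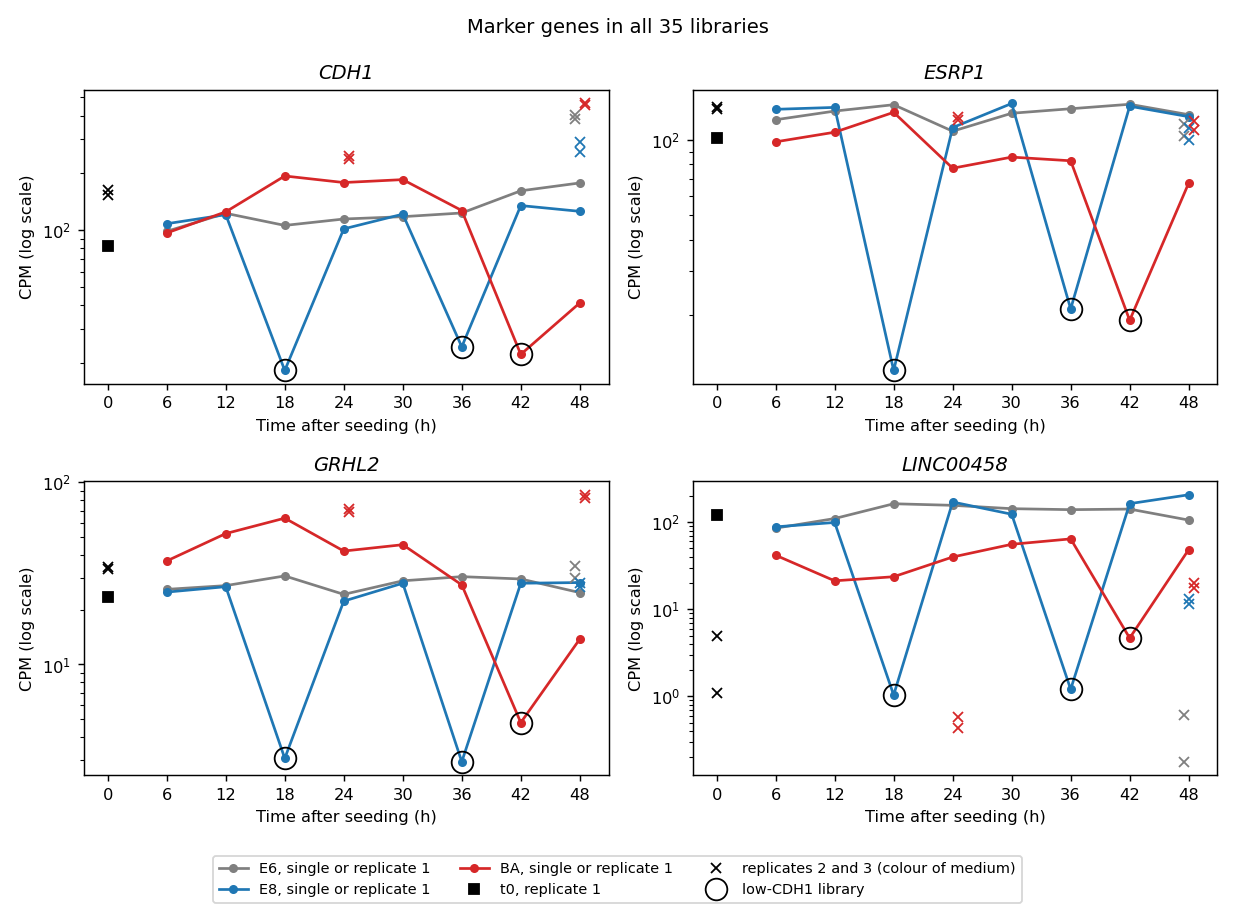
CPM on a log axis against hours after seeding for CDH1, ESRP1, GRHL2 and LINC00458 in all 35 libraries; lines join single or replicate 1 libraries of a medium, crosses are replicates 2 and 3, and rings are the low-CDH1 libraries. The ringed libraries are the lowest of all 35 for CDH1, ESRP1 and GRHL2, while for LINC00458 crosses fall as low as 0.178 CPM.

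Among epithelial genes, from lists of 64 with 55 kept, 15 were at least 2-fold lower in all 3 low libraries and 0 were higher, 27.27% against 0.379% of all genes kept. CDH1, ESRP1 and GRHL2 are among the 15 and served to choose or mark the libraries. The median differences of the 55 genes were -0.75, -0.62 and -0.74, against -0.01, -0.03 and -0.01 over all genes kept. Whether fewer cells expressed these genes or each cell held less of their RNA cannot be told apart in bulk samples.

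Of 27 junction genes 5 were lower in all 3 libraries: CDH1, CDH3, EPCAM, CLDN7 and MARVELD3. CLDN7, a tight junction claudin, was at 0.732, 0.508 and 0.850 CPM in the low libraries and at 5.94 to 17.1 CPM in the 6 neighbours. Its differences were -3.15, -3.01 and -2.10, with a pooled replicate SD of 1.65. CDH3 encodes P-cadherin and was at 27.0, 29.1 and 14.8 CPM, against 84.0 to 104 CPM in the E8 neighbours and 46.4 and 45.5 CPM in the BA neighbours. EPCAM, an adhesion molecule of epithelia and pluripotent cells, was at 43.4, 44.6 and 17.2 CPM. Its E8 neighbours were at 107 to 144 CPM and its BA neighbours at 48.9 and 45.6 CPM, so that no low library overlapped any neighbour. MARVELD3, a tight junction membrane protein, had differences of -2.25, -2.32 and -1.01.

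The other 22 junction genes ranged from close to their neighbours to just short of the fold, and 15 of all 27 were below both own neighbours in every low library. INADL, a polarity scaffold, had differences of -1.14, -0.91 and -0.74, the tight junction protein cingulin (CGN) had -0.75, -0.54 and -1.09, and the desmosomal plakophilins PKP2 and PKP3 had -0.55, -0.70 and -1.17 and -1.16, -0.35 and -1.51. The scaffold gene TJP1 had differences of 0.08, -0.15 and -0.42, occludin (OCLN) had -0.13, -0.27 and -0.21, and the desmosomal cadherin DSG2 had -0.09, -0.33 and -0.12. CLDN6, a claudin of pluripotent and embryonic epithelia, was at 315, 279 and 111 CPM, with differences of -0.42, -0.14 and -0.18. CLDN4 and CRB3 were at least 2-fold lower in the E8 libraries, at -1.43 and -1.45 for CLDN4 and -1.80 and -1.51 for CRB3, and differed by -0.83 and -0.80 in BA at 42 h. The junction list therefore divided, with 5 members past the fold and 22 not.

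Of 10 epithelial splicing and transcription factors kept, 4 were lower in all 3 libraries: ESRP1, ESRP2, GRHL2 and OVOL2. ESRP2 was at 17.6, 20.3 and 7.41 CPM, against 45.1 to 49.6 CPM in the E8 neighbours and 14.8 and 17.1 CPM in the BA neighbours. The E8 low libraries thus overlapped the BA neighbours, while each stayed below its own neighbours. OVOL2, a zinc finger repressor of mesenchymal genes, was at 0.183, 0.381 and 0.607 CPM against 2.49 to 4.52 CPM. RBM47, an RNA-binding protein of epithelia, had differences of -0.17, -0.36 and 0.15. GRHL3 and KLF5 were lower in BA at 42 h alone, at -1.96 and -1.78.

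Of 15 genes of surface proteases and membrane traffic kept, 6 were lower in all 3 libraries: ST14, SPINT1, AP1M2, MAL2, TMEM30B and LAD1. SPINT1, a membrane inhibitor of serine proteases, was at 8.30, 9.91 and 9.59 CPM, with E8 neighbours at 54.4 to 66.1 CPM and BA neighbours at 37.5 and 41.7 CPM. ST14, the membrane protease matriptase that SPINT1 inhibits, was at 9.03, 11.3 and 3.64 CPM, with differences of -1.57, -1.19 and -1.14. AP1M2 encodes a subunit of the epithelial clathrin adaptor that sorts proteins to the basolateral membrane. It was at 1.28, 2.03 and 1.27 CPM in the low libraries and at 22.6 to 25.7 CPM in the E8 neighbours, with 21.8 and 16.0 CPM in the BA neighbours. MAL2, which carries proteins to the apical membrane, had differences of -1.66, -1.70 and -1.70, and TMEM30B, a subunit of lipid flippases, had -2.74, -2.80 and -1.77. LAD1, an anchoring filament protein, had -1.82, -2.08 and -1.70. Of the 3 keratins kept 0 were past the fold in all 3, and KRT8 had differences of -0.33, -0.16 and -0.97.

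**Figure D3:**
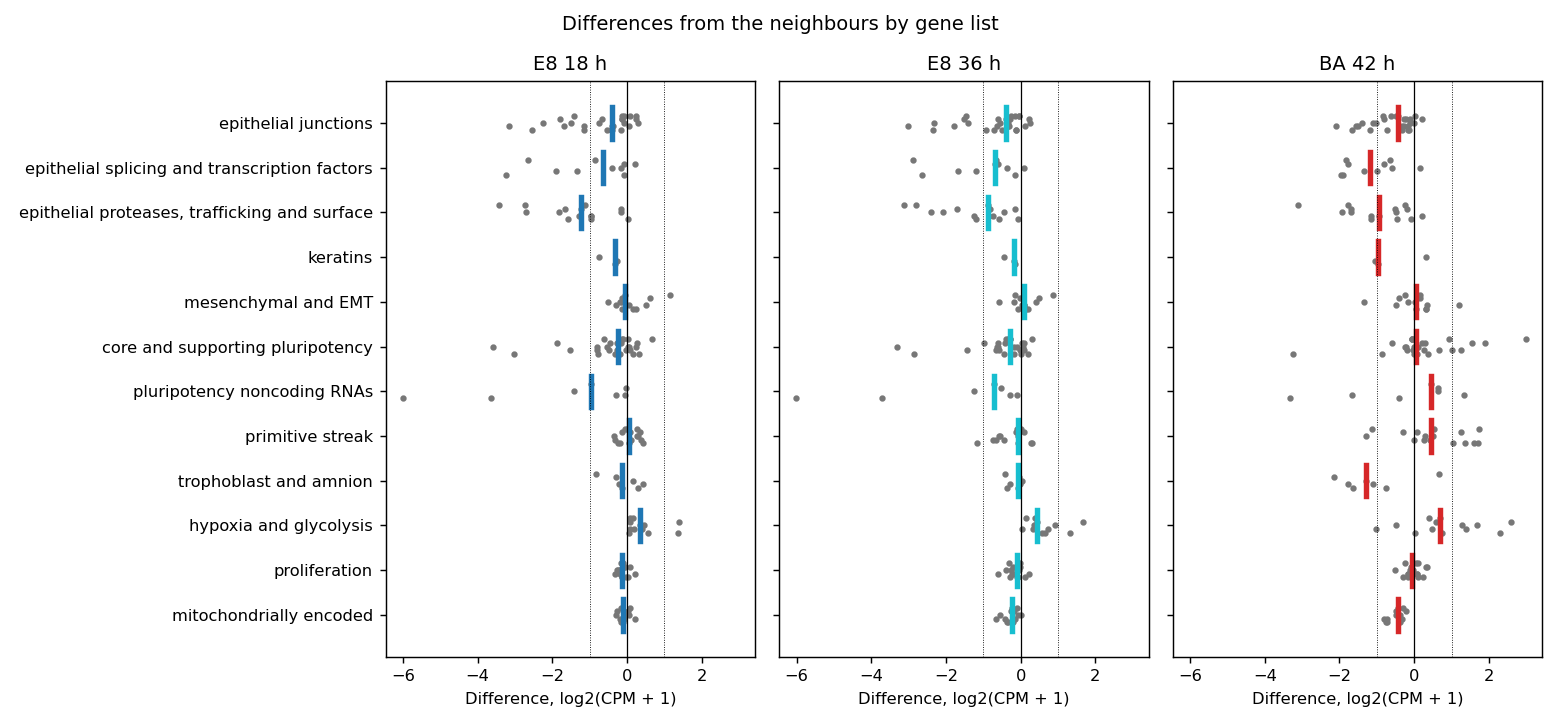
Differences from the neighbours on log2(CPM + 1) by gene list, 1 panel per low library; grey points are the kept genes of a list, coloured bars the list's median and dotted lines a 2-fold difference. The epithelial lists reach far to the left in all 3 panels, the hypoxia and glycolysis medians are 0.35, 0.43 and 0.69, and the primitive streak and trophoblast lists spread most in BA at 42 h.

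The mesenchymal list had medians of -0.05, 0.08 and 0.05, against -0.01, -0.03 and -0.01 over all genes kept. Of its 13 genes kept, 0 were lower and 0 higher in all 3 libraries. This is near the shares over all genes, 0.379% lower and 0.177% higher. CDH2, which encodes N-cadherin, was at 296, 299 and 818 CPM with differences of 0.23, 0.19 and 0.32, and VIM, vimentin, had -0.29, 0.08 and -0.49. ZEB2 was at 39.0 CPM in E8 at 18 h against 18.4 and 15.7 CPM, at 44.7 CPM in E8 at 36 h against 25.3 and 22.5 CPM, and at 98.3 CPM in BA at 42 h against 78.0 and 98.7 CPM. ZEB2 was thus above both neighbours in the E8 libraries, by 1.15 and 0.88, but within the range of its neighbours in BA. ZEB1 had differences of 0.63, 0.48 and 0.16, and SNAI1 had -0.13, -0.08 and 0.31. FN1, fibronectin, also of the mesenchymal list, had -0.52, -0.57 and -1.34. Fibroblast genes gave 0 of 11 lower or higher in all 3, again near the share over all genes, with medians of -0.25, -0.37 and -0.36.

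Of the 28 core and supporting pluripotency genes kept, 1 was lower in all 3 libraries, and the medians were -0.23, -0.29 and 0.06. That gene, ZFP42 (REX1), a zinc finger factor used as a marker of undifferentiated cells, was at 10.7, 11.8 and 7.34 CPM in the low libraries. Its 6 neighbours were at 77.9 to 93.5 CPM, and over all other single and replicate 1 libraries it ranged from 53.5 to 133 CPM. POU5F1 (OCT4) was at 407, 363 and 383 CPM with differences of -0.77, -0.46 and 0.00, and NANOG had -0.80, -0.61 and -0.02. SOX2 was at 255 and 215 CPM in the E8 low libraries, with differences of -0.03 and -0.01, and at 12.6 CPM in BA at 42 h against 6.30 and 3.51 CPM. LEFTY1, a Nodal antagonist, was at 1.04 and 0.699 CPM in the E8 low libraries against 15.4 to 30.5 CPM in their neighbours, a difference of -3.58 and -3.31, and -0.22 in BA. Of the 7 pluripotency noncoding RNAs kept, LINC00458 was the 1 lower in all 3. All 7 were below 0 in both E8 libraries, 3 of them past the fold, with medians of -0.98 and -0.71, against 0.45 in BA at 42 h. Over all 15288 genes kept, 7895 were below 0 in E8 at 18 h and 8425 in E8 at 36 h. LINC00678 had -1.43, -1.25 and 0.64, and ESRG had -0.29, -0.10 and 1.33. ESRG in BA at 42 h, at 51.9 CPM, was close to BA at 36 h at 45.2 CPM. Its BA difference came from 8.62 CPM at 48 h in replicate 1, whereas replicates 2 and 3 of that group were at 1079 and 1252 CPM.

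PKIB, an inhibitor of protein kinase A, had the largest weakest difference of all genes ranked by the smallest of their 3 differences. Its levels were 0.610, 0.127 and 0.668 CPM (10, 2 and 11 counts), while the 6 neighbours were at 17.4 to 33.3 CPM. Replicates 2 and 3 were also low in PKIB, at 0.534 to 1.24 CPM in all 10 libraries, against 11.8 to 33.3 CPM in the other 22. RAB17, a small GTPase of epithelial traffic, was at 0.732, 0.699 and 1.27 CPM against 5.93 to 25.2 CPM. ANXA3, an annexin, had differences of -1.75, -2.26 and -2.23. RP11-867G2.6, a noncoding gene in the file's names with no match in GENCODE 29, had -3.28, -3.99 and -1.80.

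**Figure D4:**
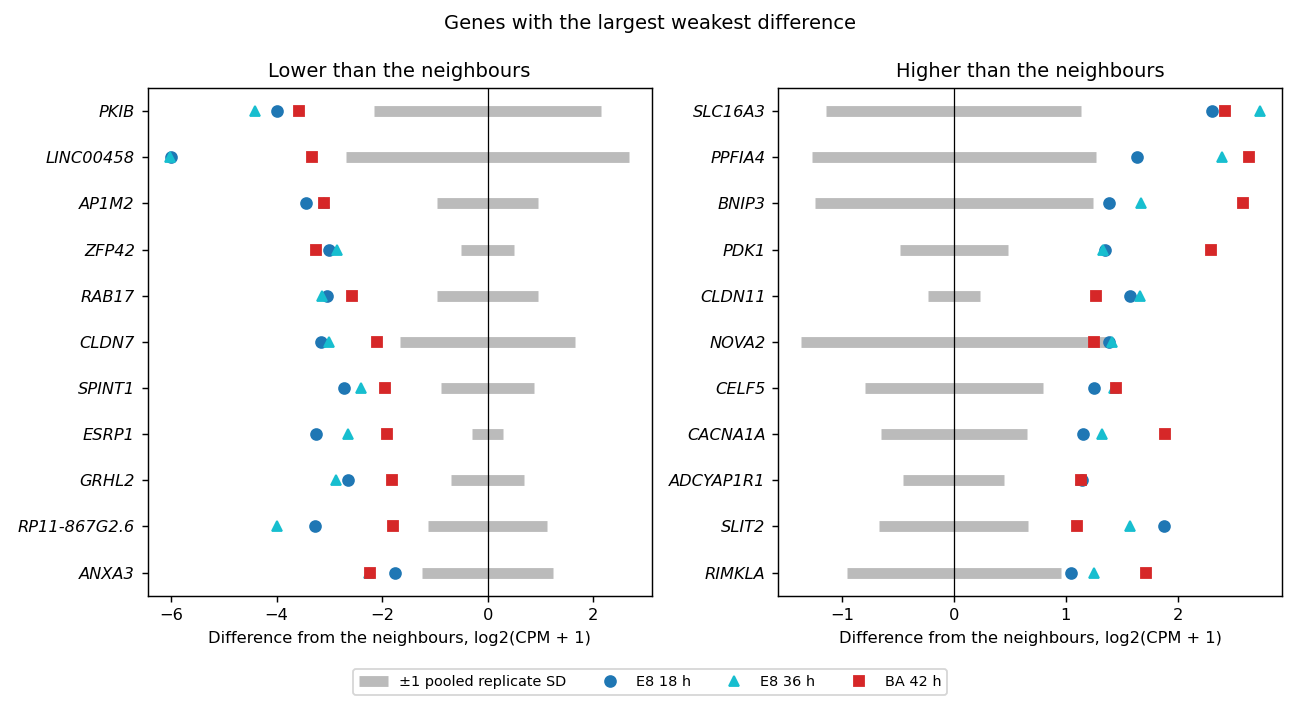
Differences from the neighbours on log2(CPM + 1) for the 11 genes with the largest fall (left) and rise (right), ranked by the smallest of the 3; symbols are the low libraries and grey bars ±1 pooled replicate SD around 0. LINC00458 reaches -6.01 in both E8 libraries, and the grey bars are widest for LINC00458 (2.68) and PKIB (2.15).

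Of the 27 higher genes SLC16A3, the lactate exporter MCT4, had the largest weakest difference. It was at 14.6 CPM in E8 at 18 h against 1.53 and 2.95 CPM, at 46.1 CPM in E8 at 36 h against 1.06 and 23.4 CPM, and at 225 CPM in BA at 42 h against 24.6 and 68.2 CPM. Each low library was above both of its own neighbours, 4.95-, 6.65- and 5.38-fold on this scale, although E8 at 18 h lay below neighbours at later hours. The pooled replicate SD of SLC16A3 was 1.14, against a smallest difference of 2.31. PDK1, a kinase that holds pyruvate back from the mitochondrion, was at 192 CPM against 76.4 and 72.6 CPM, 301 CPM against 91.6 and 155 CPM, and 523 CPM against 139 and 80.1 CPM. No low library overlapped a neighbour in PDK1, and its pooled replicate SD was 0.48 against differences of 1.35, 1.33 and 2.30. BNIP3, a mitophagy receptor induced by low oxygen, was at 73.0, 159 and 235 CPM, with differences of 1.38, 1.67 and 2.59.

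Of 13 hypoxia and glycolysis genes kept, 2 were higher in all 3 libraries, PDK1 and BNIP3, and 0 were lower. The medians of the list were 0.35, 0.43 and 0.69, against -0.01, -0.03 and -0.01 over all genes. LDHA, lactate dehydrogenase, had differences of 0.39, 0.75 and 1.38, PGK1 had 0.37, 0.92 and 1.28, and VEGFA had 0.15, 0.15 and 0.40. SLC2A3, a glucose transporter, had 0.09, 0.05 and -1.03. BNIP3 and SLC16A3 were also higher late than early in E8 and E6, and the E8 neighbours at 42 and 30 h differed by 2.18 in BNIP3 and by 3.57 in SLC16A3. Leaving out the neighbour E8 at 30 h lowered the count of higher genes from 27 to 14. Against E8 at 42 h alone, E8 at 36 h differed by 0.95 in SLC16A3, 0.97 in PPFIA4, 0.58 in BNIP3, 0.96 in PDK1 and 0.27 in DDIT4, all under the fold. The hypoxia and glycolysis list then had 0 genes higher in all 3 libraries.

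DDIT4, a stress-induced inhibitor of mTORC1, was at 25.7, 48.8 and 38.4 CPM, with differences of 1.20, 1.03 and 1.11. Its BA neighbours were at 7.45 and 38.2 CPM, so BA at 42 h was level with its later neighbour. Of the 13 genes of the ATF4 and unfolded protein list, DDIT4 was the 1 higher gene and TRIB3, a pseudokinase induced by ATF4, the 1 lower gene, at -1.17, -1.20 and -1.17. TRIB3 in BA at 42 h, at 4.67 CPM, was level with BA at 36 h at 4.66 CPM, and its BA difference came from 27.8 CPM at 48 h. ATF4 itself had differences of -0.43, -0.40 and -0.60.

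CLDN11, the claudin of myelin and Sertoli cells, was at 51.3 and 46.7 CPM in the E8 low libraries, against 12.5 to 20.8 CPM in their neighbours, and at 114 CPM in BA at 42 h against 27.9 and 76.8 CPM. Its differences of 1.58, 1.67 and 1.27 compare with a pooled replicate SD of 0.23. SLIT2, a secreted guidance protein, was at 122, 134 and 157 CPM, above all 6 neighbours at 31.8 to 92.8 CPM. Several higher genes are known from neurons. NOVA2, a neuronal splicing factor, was at 25.8, 28.9 and 4.13 CPM, with E8 neighbours at 8.12 to 12.9 CPM and BA neighbours at 1.51 and 0.830 CPM. With the mean of the 3 replicates as the 48 h neighbour its BA difference turned from 1.26 to -0.06. CELF5, another neuronal RNA-binding protein, had 1.26, 1.43 and 1.45, CACNA1A, a calcium channel subunit, had 1.16, 1.33 and 1.89, and ADCYAP1R1, a neuropeptide receptor, had 1.14, 1.13 and 1.14. PPFIA4, a liprin, had 1.63, 2.40 and 2.64 with a pooled replicate SD of 1.27, and RIMKLA, which makes N-acetylaspartylglutamate, had 1.05, 1.25 and 1.72. With the same 3-replicate mean the BA difference was under the fold in CELF5 (0.61), ADCYAP1R1 (0.66), RIMKLA (0.78) and DDIT4 (0.52) and past it in CACNA1A (1.12). Without E8 at 30 h the difference of E8 at 36 h was under the fold in CELF5 (0.98), ADCYAP1R1 (0.93) and RIMKLA (0.53). Of the 9 neuroectoderm genes kept 0 were past the fold in all 3 libraries, nor were any of the 8 neural crest genes. This is near the shares over all genes kept, 0.379% lower and 0.177% higher.

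**Figure D5:**
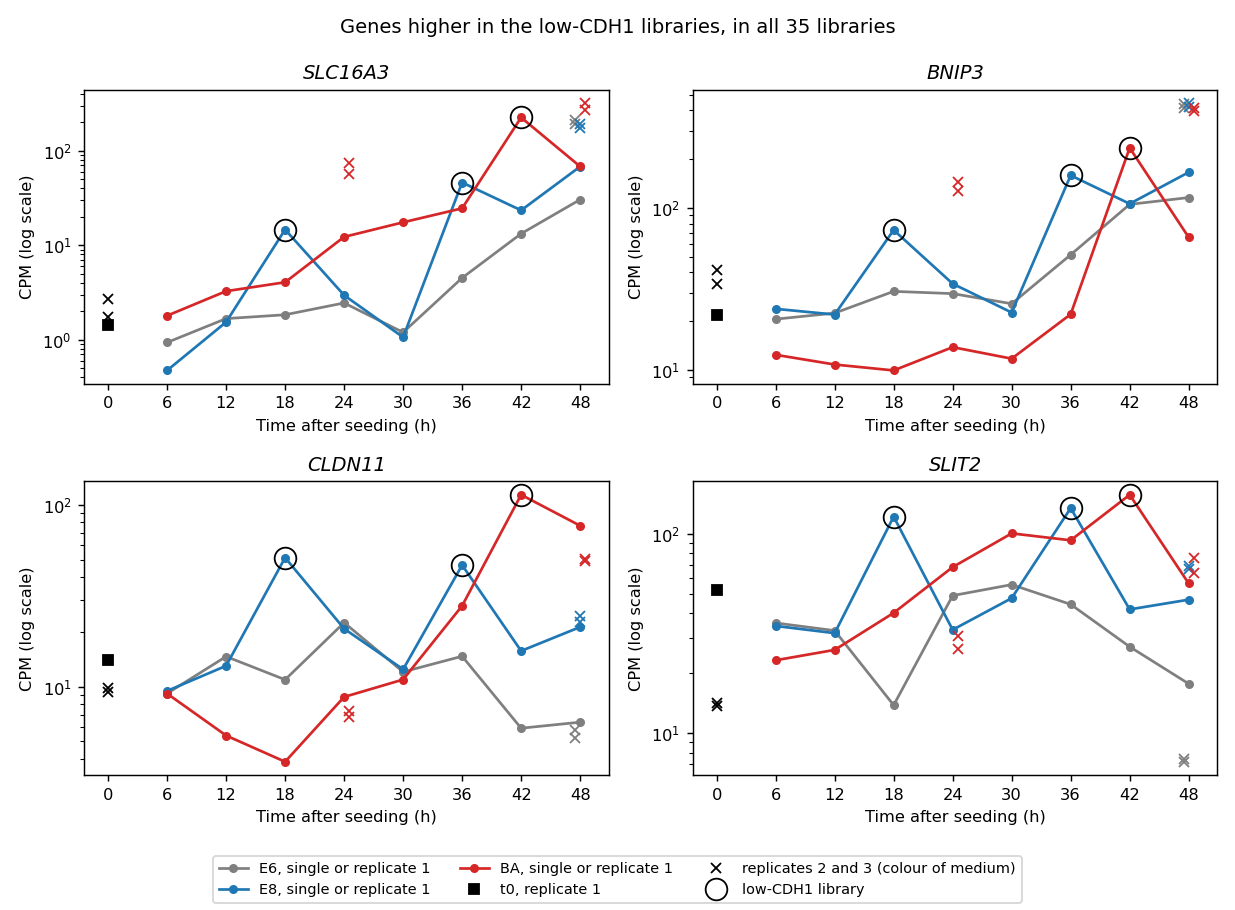
CPM on a log axis against hours after seeding for SLC16A3, BNIP3, CLDN11 and SLIT2 in all 35 libraries; lines, crosses and rings are as in the plot of the marker genes. SLIT2 in the ringed libraries is above every other library, while for SLC16A3 and BNIP3 replicates 2 and 3 reach 317 and 442 CPM.

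Some genes passed the fold in both E8 low libraries and not in BA at 42 h; they were named after the values had been seen, and the difference between the media was not tested. Of the 134 genes lower in both E8 libraries (0.877% of genes), 75 differed by less than 2-fold in BA at 42 h. They include LINC01194 at -3.65 and -3.72, the calcium-binding protein gene CALB1 at -2.89 and -2.79, the growth factor gene FGF19 at -2.52 and -2.60 and the transcription factor gene ETS1 at -2.18 and -2.31. In BA at 42 h they differed by -0.40, 0.84, 0.21 and -0.82 in that order. LINC01194 was at only 1.15 and 0.255 CPM in the BA neighbours, so a 2-fold fall on log2(CPM + 1) could not be reached there. CALB1 was at 8.42 and 7.18 CPM in the E8 low libraries, against 47.3 to 74.6 CPM in the E8 neighbours, and at 106 CPM in BA at 42 h. Among the 68 genes higher in both E8 libraries (0.445%), 39 differed by less than 2-fold in BA. PAX8, a paired-box factor, led them at 1.77 and 1.93, and SCUBE1, a secreted protein, was at 60.1 and 61.7 CPM against 14.7 to 23.4 CPM. Their BA differences were in the same direction, 0.45 and 0.77. PAX8 was near 0 in BA, at 0.607 CPM at 42 h against 0.303 and 0.0639 CPM.

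In BA at 42 h 248 of the 339 lower genes differed by less than 2-fold in both E8 libraries. They include HPGD, which degrades prostaglandins, at -3.40 (-0.95 and -0.99 in the E8 libraries), the prostaglandin transporter gene SLCO2A1 at -2.86, the carbonic anhydrase gene CA12 at -2.90 and the BMP antagonist gene NOG at -2.39. HPGD was at 0.183 and 0.127 CPM in the E8 low libraries against 1.13 to 1.36 CPM in their neighbours. Over the E8 libraries compared, SLCO2A1 was at 0.610 to 1.26 CPM, CA12 at 1.38 to 3.21 CPM and NOG at 0.151 to 0.732 CPM. A 2-fold fall on log2(CPM + 1) was out of reach for NOG in E8 and barely within reach for HPGD and SLCO2A1. How many of the 248 were so limited was not counted. Trophoblast and amnion genes were lower in BA at 42 h in 5 of the 7 kept, with a median of -1.30, where 2.22% of all genes were lower. Summed over the list, CPM was 3.88 to 9.4 in the E8 libraries compared and 489 and 616 in the BA neighbours. Such genes passed the filter mainly through BA, so their share and that over all genes are not like for like. GATA3 was at 41.3 CPM between 154 and 131 CPM, and TFAP2A at 17.7 CPM between 76.2 and 26.4 CPM. Of the 237 higher genes 191 differed by less than 2-fold in both E8 libraries, led by FGF4 at 104 CPM between 37.2 and 3.64 CPM. Primitive streak genes were higher in 6 of the 16 kept and lower in 2, where 1.55% of all genes were higher. This list summed to 9.34 to 31.6 CPM in the E8 libraries compared and to 4104 and 5334 CPM in the BA neighbours. The same limit applies. GSC was at 38.1 CPM, a difference of 1.25, and TBXT at 346 CPM between 314 and 88.8 CPM, so BA at 42 h was above both neighbours in these genes but close to the earlier one in TBXT. EVX1 and CDX1, streak genes of posterior identity, were lower, at -1.29 and -1.13.

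The marker lists of other cell types named next had no gene past the fold in all 3 libraries. Over all genes kept only 0.379% were lower and 0.177% higher. A count of 0 in lists this short is near that share and sets no cell type apart. Definitive endoderm (8 kept), early mesoderm (12), blood and endothelium (6), hepatocyte (1) and muscle (5) genes each gave 0 lower and 0 higher. The same held for proliferation (18), p53 (13), immediate early (12), heat shock (10), nuclear noncoding (6) and cholesterol synthesis genes (14). Some members were kept through BA alone. In the E8 libraries compared, SOX17 was at 0 to 0.427 CPM, HAND1 at 0 to 0.629 CPM and ISL1 at 0 to 0.183 CPM. With neighbours under 1 CPM a 2-fold fall on log2(CPM + 1) is out of reach, so for such genes 0 lower in all 3 was fixed in advance. All 14 cholesterol genes were below 0 in each low library, with medians of -0.25, -0.33 and -0.48. Over all 15288 genes kept, 7895, 8425 and 8000 were below 0, with medians of -0.01, -0.03 and -0.01. Mitochondrially encoded genes had medians of -0.10, -0.24 and -0.44. The median difference of every chromosome lay between -0.09 and 0.04.

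Over the 25 single and replicate 1 libraries, the genes with a pattern most like CDH1 among 11514 included GRHL2 (Pearson's r = 0.94), INADL (0.92), AP1M2 (0.90), ZNF772 (0.90), TMEM30B (0.90), TSSC2 (0.89), ESRP1 (0.88), GALNT3 (0.88) and PNPLA4 (0.87). Without the 3 low libraries, r over 22 was 0.71 for GRHL2 and GALNT3, 0.62 for INADL, 0.33 for ESRP1 and 0.13 for PNPLA4. The likeness thus fell without the 3 low libraries, least for GALNT3 and GRHL2 and most for PNPLA4 among these 5, and the points share libraries, media and hours.

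Replicates 2 and 3, which were not used to choose the genes, divided the 58 lower genes. For 36 of the 58 none of these 10 libraries fell to the level of the low libraries. CLDN7 was at 61.1 to 95.3 CPM there, AP1M2 at 62.6 to 88.3 CPM and ZFP42 at 92.3 to 168 CPM. For 19 of the 58, 5 or more of these 10 were at or below the highest low library, and for 6 all 10 were: COL5A2, TBX5-AS1, MYO16, ZNF542P, ZNF772 and PNPLA4. Of the other 22 libraries, 19 were also in that range for COL5A2, 1 for TBX5-AS1 and 0 for the rest. PNPLA4, a lipase gene, was at 0.183, 0.381 and 0.546 CPM in the low libraries, at 0 to 0.0297 CPM in replicates 2 and 3 and at 5.75 to 10.8 CPM in the other 22 libraries. For 21 of the 27 higher genes 5 or more of the 10, and for 9 all 10, were at or above the lowest low library. Among these 9, the other 22 libraries also reached it in 19 cases for NOVA2, 17 for PTPN5, 16 for RIMKLA, 12 each for CELF5 and ADCYAP1R1, 1 for SYT11 and 0 for ZNF595, RNF212 and CAT. CAT, the catalase gene, was at 5.61, 3.94 and 4.61 CPM in the low libraries, 5.39 to 9.86 CPM in replicates 2 and 3 and 0.838 to 3.16 CPM in the other 22. ZNF595 was at 3.05, 2.99 and 3.82 CPM, 3.97 to 5.84 CPM and 0.154 to 0.907 CPM in the same order. In PNPLA4 and ZNF595 the low libraries lay between the sets and were nearer to replicates 2 and 3. In CAT all 3 were above the other 22 libraries, but E8 at 36 h (3.94 CPM) and BA at 42 h (4.61 CPM) lay between the sets. In 13 of the 15 epithelial genes lower in all 3 the low libraries lay below both sets, and in ESRP2 and ST14 2 of the other 22 libraries reached their range. These examples were chosen after their values had been seen.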

How the data were processed

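Whole read counts per gene were deposited for all 35 libraries. Libraries were TruSeq mRNA, per the labels' protocols. The submitters' processing notes name featureCounts, DESeq2 and hg38; the aligner, strand setting and versions are not given in the sources used here. The deposited table's symbols are named as GENCODE 23. The authors' deposited fold change table was not used. Counts were scaled to CPM with TMM factors over 35 libraries (edgeR 4.0.16, R 4.3.3) and compared as log2(CPM + 1) with a pseudocount of 1. Genes with a mean of at least 1 CPM over the 9 libraries were kept, and a gene counted as lower or higher where all 3 differences had 1 sign and were at least 1. No test was made. The error scale is the within-group SD of log2(CPM + 1) pooled over 5 groups of 3 replicates. Positions and types came from GENCODE 29, matched by symbol for 13821 genes (90.4%). The listed PATJ appears as INADL. Poisson intervals cover counting error. The steps were tested on simulated data.

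Named are the 4 markers, the 12 largest falls and 12 largest rises by their weakest difference at a mean of 5 CPM or more, members of 26 gene lists past the fold and defining list members. 1 gene that this rule names is not reported here. Other list members named were chosen after their values were seen. The libraries, markers and lists were chosen with earlier results of these data known. The alternatives were other scalings, pseudocounts, filters, folds and left-out libraries.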

Additional observations from a re-analysis of the deposited data

Results flagged for a closer look

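EGR1, an immediate early transcription factor, differed in direction between the media. It was at 22.8 CPM in E8 at 18 h against 8.71 and 8.23 CPM, and at 31.3 CPM in E8 at 36 h against 10.9 and 10.8 CPM, differences of 1.33 and 1.45. In BA at 42 h it was at 2.37 CPM against 5.09 and 7.09 CPM, a difference of -1.06. Both E8 libraries moved one way and the BA library the other; the difference was not tested, since BA holds 1 such library.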

How the results depend on the processing

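The counts of genes at least 2-fold lower, at least 2-fold higher and lower among the epithelial lists were 58, 27 and 15. They became 21, 7 and 9 with a pseudocount of 5 CPM and 7, 1 and 2 with a fold of 4. The count of higher genes was 15 with a mean of at least 5 CPM and 16 with the mean of the 3 replicates of BA at 48 h. Leaving out 1 library gave 56 to 134 lower, 14 to 68 higher and 14 to 18 epithelial genes. The upper ends, 134, 68 and 18, came without BA at 42 h, where only 2 libraries must pass, and the 14 higher genes without E8 at 30 h. Other scalings gave 52 to 60 lower genes, and of the 58 genes 52 were shared when only library totals were used. Of 975 alternative values of single gene differences, 944 moved by less than the replicate SD, 30 by more, and 1 reversed: NOVA2 in BA at 42 h, at -0.0612 with the 3-replicate mean. No paired analysis was possible because the low libraries and 5 of their 6 neighbours are single libraries whose labels carry no replicate number to pair on. The pairing meant here is by replicate number only. Each low library was still compared with its own neighbours, matched by medium and hour. With single libraries, genes under about 1 CPM rest on few counts.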
